A study of Mus musculus with 34 samples.

Results

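The stefin A cluster and cystatin B are described here through 5 mouse genes, Stfa1, Stfa2, Stfa2l1, Stfa3 and Cstb, which were chosen by symbol and matched to 1 Ensembl gene ID each among the 54532 IDs counted. Blood RNA was sequenced from wild-type mice in 4 treatment groups: 7 mice given ALY688 with lipopolysaccharide (LPS), 4 given LPS, 10 given ALY688 and 9 given phosphate-buffered saline (PBS). LPS, a cell wall molecule of Gram-negative bacteria, is sensed through Toll-like receptor signalling, and ALY688 is titled an agonist of the adiponectin receptor. The sources used here give no dose, sampling time, strain, sex or age. All groups share the wild-type genotype, and each label numbers a single mouse, so a replicate is 1 animal. The series text speaks of an ALY688 experiment and of a sublethal LPS model, and whether LPS itself or the separate experiment sets mice with LPS off from mice without it cannot be told apart.

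Cystatins are inhibitors of papain-like cysteine proteases, mainly the cathepsins of lysosomes, which they block by filling the active-site cleft. Stefins are the branch of the family without a signal peptide, and they act mainly inside the cell. Cystatin B, encoded by Cstb, is made in most cell types. The mouse stefin A genes arose by tandem duplication, and their transcripts are known from neutrophils and from stratified epithelium.

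Libraries held between 9554964 and 17338214 counts. Globin genes took 18.5% to 64.4% of them, and between 14351 and 19746 genes had a count. In 6 libraries fewer than 16000 genes had a count: ALY688+LPS mice 6 and 8, ALY688 mouse 7, and PBS mice 5, 6 and 9. Levels are CPM, counts relative to the library's total, after scaling by the trimmed mean of M-values (TMM), which uses the bulk of genes to set a common scale. On that scale 3 counts correspond to 0.0688 to 0.904 CPM depending on the library, and a value of 0 is known only to that limit, which covers counting error alone. Fold changes are on the log2 scale with their standard error (SE), and genes are said to pass where edgeR's quasi-likelihood test, adjusted by Benjamini-Hochberg over all genes tested, gave a p below 0.05.

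The 4 stefin A members lie within 299 kb of mouse chromosome 16 (GRCm38, GENCODE M21). Stfa2l1 spans chr16:36156811-36161953 and Stfa1 spans chr16:36276951-36285373, both on the forward strand. Stfa2 spans chr16:36403992-36408457 and Stfa3 spans chr16:36450537-36455392, both on the reverse strand. Cstb lies apart from them, on the forward strand at chr10:78425669-78427622. Their annotated exons cover 710 bases in Stfa1, 603 in Cstb, 471 in Stfa2, 419 in Stfa2l1 and 412 in Stfa3, so per-length levels below are CPM per kb of exon.

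Promoter sequences are shown because the 4 stefin A members share stretches of identical bases there. The sequences are from RefSeq (GRCm38.p6), read 5′ to 3′ on the gene's strand from 250 bases before the RefSeq start, and capitals mark runs of at least 10 bases that all 4 windows hold letter for letter. Bases inside a GENCODE first exon are not printed, which leaves out the last 197 bases of the Stfa1 window and the last 94 of the Stfa2 window, so only the first run is shown for Stfa1 and the last run shown for Stfa2 is cut short.
Stfa2l1, chr16:36156561-36156810, forward: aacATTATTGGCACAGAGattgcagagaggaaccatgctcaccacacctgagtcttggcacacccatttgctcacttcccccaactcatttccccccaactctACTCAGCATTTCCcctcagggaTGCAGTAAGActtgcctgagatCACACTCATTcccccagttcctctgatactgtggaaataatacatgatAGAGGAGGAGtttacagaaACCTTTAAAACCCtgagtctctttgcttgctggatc
Stfa3, chr16:36455393-36455642, reverse: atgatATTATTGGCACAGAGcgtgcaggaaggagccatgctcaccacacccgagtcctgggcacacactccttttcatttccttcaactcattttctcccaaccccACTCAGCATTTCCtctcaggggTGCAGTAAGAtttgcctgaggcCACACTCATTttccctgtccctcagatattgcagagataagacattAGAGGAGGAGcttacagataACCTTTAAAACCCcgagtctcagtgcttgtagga
Stfa2, chr16:36408458-36408613, reverse: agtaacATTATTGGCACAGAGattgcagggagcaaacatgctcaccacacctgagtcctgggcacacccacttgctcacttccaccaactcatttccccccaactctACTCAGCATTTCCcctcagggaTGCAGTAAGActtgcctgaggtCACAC
Stfa1, chr16:36276898-36276950, forward: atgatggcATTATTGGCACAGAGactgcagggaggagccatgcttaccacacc

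Over the aligned bases of the 250-base windows, Stfa2 and Stfa2l1 were 92.3% identical, and the other pairs of members were 81.8% to 85.0% identical. The windows shared 6 runs. The run farthest upstream, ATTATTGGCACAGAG, was found in 5 of 32841 RefSeq mouse promoter windows searched on both strands, those of the 4 members and of Cstdc5 (named BC100530 in GENCODE). The run nearest the start, ACCTTTAAAACCC, was found in 8 windows. It began 36 bases before the RefSeq start in Stfa2l1, 34 in Stfa3, 33 in Stfa1 and 32 in Stfa2. The shared run AGAGGAGGAG was less particular, with 268 windows.

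Known motif letters were looked for on both strands of the same windows. The CCAAT letters, the core of the NF-Y site, were present in all 4 stefin A windows, on the opposite strand within the first shared run, and in 33.9% of all windows. The letters TTNNGNAA, a loose C/EBP form, were present in the windows of Stfa1, Stfa2 and Stfa2l1, not in that of Stfa3, and in 36.9% of all windows. GAGGAA, an ETS core, was present in all 4 and in 23.3% of all windows. In Stfa1 and Stfa2 the TTNNGNAA and GAGGAA matches lay inside the GENCODE first exon, among the bases not printed above. TATAAA (12.4% of all windows), TGANTCA (an AP-1 form, 6.75%) and the NF-kB consensus (7.25%) had no match in any of the 4 windows. These are letter matches and were not set against any binding data.

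Near-identical sequence also bears on how reads could be assigned. The longest transcripts of Stfa2 and Stfa2l1 were 95.7% identical over aligned bases, and those of Stfa1 and its neighbour BC100530 were 97.1% identical. Stfa3 was 81.2% to 82.2% identical to the other 3 members, and Cstb was 56.0% to 64.4% identical to the 4 stefin A members. Of all 50-base words of a gene's transcripts, 24.6% in Stfa2l1, 22.5% in Stfa1 and 15.9% in Stfa2 also occurred in another gene, and none did in Stfa3 or Cstb. At 75 bases the shares were 7.83% in Stfa2l1, 9.15% in Stfa1 and 5.79% in Stfa2, and at 150 bases no member shared a word. No source used here states the read length or what was done with reads that match several places, so the counts of Stfa1, Stfa2 and Stfa2l1 are uncertain to that degree.

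The mice given LPS, with or without ALY688, had more reads of every member than the mice without LPS. Stfa2l1 was the most abundant stefin A gene in each group, and Stfa2 and Stfa3 were at or near 0 without LPS. ALY688 made no difference that passed for any member tested, nor for any other gene tested, with or without LPS. Without LPS, Stfa1, Stfa2 and Stfa3 had too few counts to enter the main test.

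**Figure D1:**
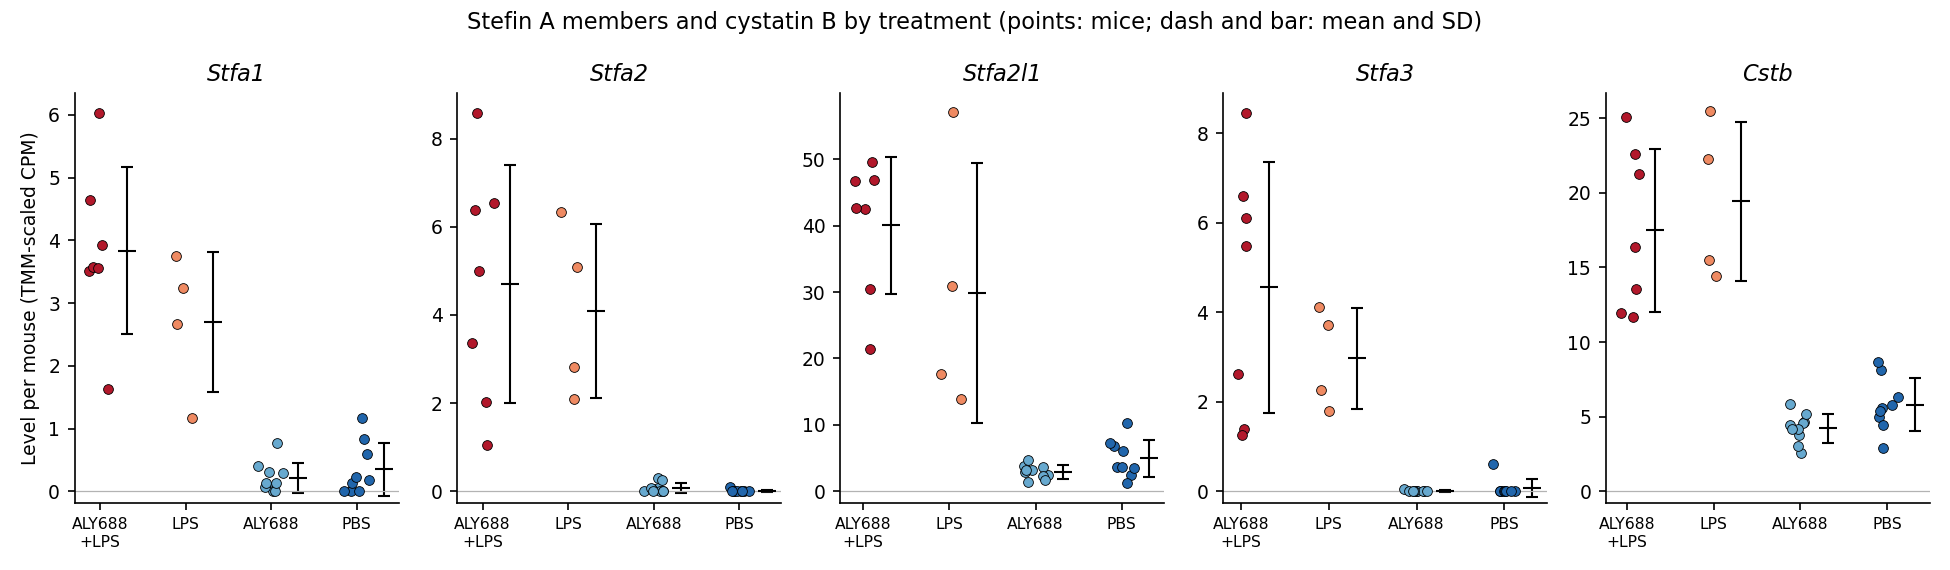
TMM-scaled CPM of the 5 members (1 panel each, linear axes that differ between panels) in each mouse of the 4 groups, with the group mean and SD beside the points. Stfa2 and Stfa3 lie at 0 in most mice without LPS, and each member is higher in both LPS groups, with a single overlap between LPS and PBS mice in Stfa1.

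Stfa2l1 had 17.7, 13.9, 57.1 and 30.8 CPM in LPS mice 2, 6, 7 and 8, against a lowest value of 1.23, a median of 3.66 and a highest of 10.2 CPM in PBS mice. No LPS mouse overlapped the PBS mice, although LPS mouse 7 stood well above the other LPS mice. The mean was 29.9 ± 19.5 CPM with LPS (SD, n = 4) and 4.98 ± 2.83 CPM with PBS (SD, n = 9), and the fitted log2 fold change was 2.68 ± 0.42 (SE, adjusted p = 0.000170, edgeR).

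Cstb, the widely made stefin, had 25.5, 22.3, 14.4 and 15.5 CPM in LPS mice 2, 6, 7 and 8, against 2.94 at the lowest, 5.57 at the median and 8.68 CPM at the highest in PBS mice. The groups did not overlap. Among the LPS mice, the 2 with the highest Cstb (mice 2 and 6) had the lowest Stfa2l1, which is a description of 4 mice. The fitted log2 fold change of Cstb was 1.78 ± 0.23 (SE, adjusted p = 2.00e-05, edgeR), the smallest of the 5 members.

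Stfa1 had 2.66, 1.17, 3.75 and 3.24 CPM in LPS mice 2, 6, 7 and 8, against 0 at the lowest, 0.183 at the median and 1.18 CPM at the highest in PBS mice. LPS mouse 6 lay just under the highest PBS mouse, so these groups overlapped. PBS mice had 0 to 7 Stfa1 counts each and LPS mice 39 to 69. The fitted log2 fold change was 3.04 ± 0.65 (SE, adjusted p = 0.00156, edgeR).

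Stfa2 had 2.82, 2.09, 6.34 and 5.08 CPM in LPS mice 2, 6, 7 and 8, and in the PBS group only mouse 1 had a count, a single one, worth 0.0915 CPM. That makes 335 Stfa2 counts over the 4 LPS libraries and 1 count over the 9 PBS libraries. At the TMM-scaled library sizes that is a ratio of 261, with an exact 95% counting interval of 46.4 to 10322 that leaves out the spread between mice. The fitted log2 fold change, which depends on the prior count when 1 group is near 0, was 7.53 ± 0.59 (SE, adjusted p = 2.16e-07, edgeR), and 8.82 without PBS mouse 1, when no PBS library had a count. In limma-voom it was 5.51.

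Stfa3 had 2.26, 1.79, 4.13 and 3.71 CPM in LPS mice 2, 6, 7 and 8, and among PBS mice only mouse 5 had any, 2 counts worth 0.602 CPM in one of the shallow libraries. Over the groups these were 256 counts with LPS and 2 with PBS, a ratio of 99.6 with a counting interval of 27.3 to 826. Stfa3 shared no 50-base word with another gene, so this contrast does not rest on reads that match a neighbour exactly over that length. The fitted log2 fold change was 6.35 ± 0.71 (SE, adjusted p = 5.08e-06, edgeR), and 8.43 without PBS mouse 5. In limma-voom it was 5.05.

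Thus 5 of 5 members passed as higher in LPS than in PBS mice. Of the 12353 genes tested, 38.7% passed in either direction, 20.9% as higher and 17.9% as lower. Stfa1, Stfa2 and Stfa3 had fewer than 10 counts in every PBS library and entered the test through the LPS libraries alone, so the count of 5 is a description and supports nothing. The direction held without any TMM scaling, which moved the median log2 fold change of all genes by 1.08 and the split of passing genes to 5597 higher and 298 lower, against 2578 higher and 2208 lower with it. On that scale Cstb stood at 3.02.

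**Figure D2:**
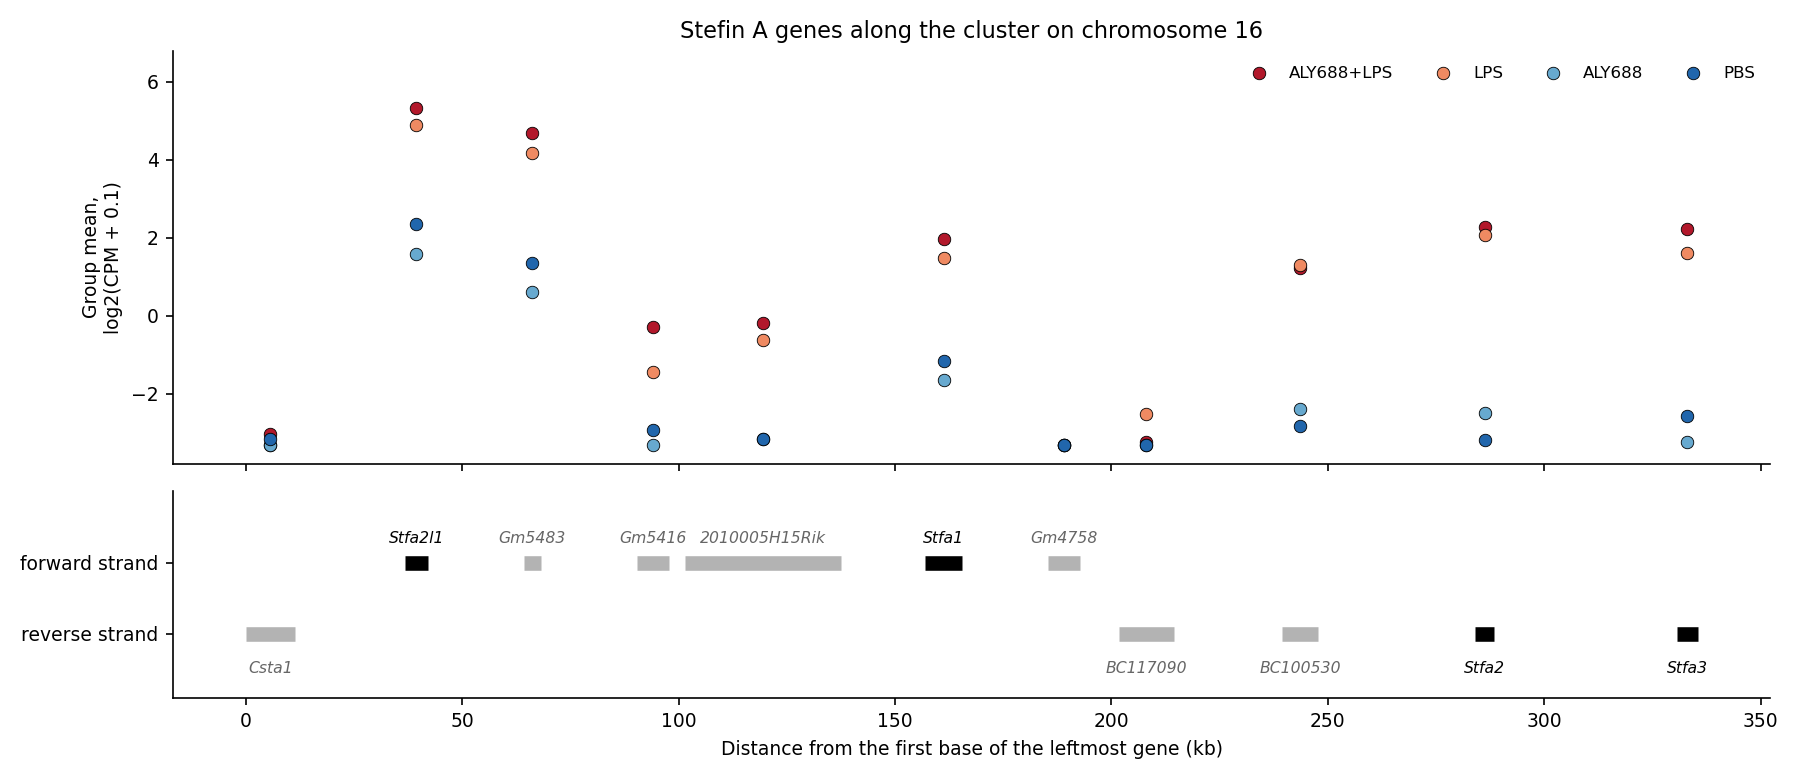
Group mean levels, as log2(CPM + 0.1), of the stefin A genes placed along the cluster (upper panel), above the genes' extents by strand (lower panel, members in black, other genes in grey), against distance in kb from the leftmost gene. Members and neighbours on both strands sit higher in the 2 LPS groups, while Csta1, Gm4758 and BC117090 lie near the floor in all 4.

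Under ALY688 the same contrast was made between mice with and without LPS. Stfa2l1 had 21.5 CPM at the lowest, 42.6 at the median and 49.5 CPM at the highest in ALY688+LPS mice, against 1.36, 3.01 and 4.69 CPM in ALY688 mice. Cstb had 11.7, 16.3 and 25.1 CPM (lowest, median and highest) in ALY688+LPS mice, against 2.55, 4.30 and 5.87 CPM in ALY688 mice. Stfa1 had 1.64, 3.57 and 6.03 CPM in ALY688+LPS mice, against 0, 0.137 and 0.778 CPM in ALY688 mice. None of these 3 genes overlapped between the groups. The share of all genes without such an overlap is not given here, so this only describes the 3 genes.

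The fitted log2 fold changes of ALY688+LPS over ALY688 were 3.82 ± 0.21 for Stfa2l1 (SE, adjusted p = 3.56e-11, edgeR), 3.95 ± 0.42 for Stfa1 (adjusted p = 1.90e-07) and 2.06 ± 0.18 for Cstb (adjusted p = 1.49e-08). All 3 members tested passed as higher, where 53% of 12266 genes passed in either direction, 26.4% as higher and 26.6% as lower. Stfa1 had 10 or more counts in 1 of the 10 ALY688 libraries, and so passed the filter through the ALY688+LPS libraries. Without TMM scaling 3050 genes passed, 1846 of them higher, against 6503 and 3236 with it, and the 3 members stayed past the threshold.

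Stfa2 and Stfa3 were removed by the filter on low counts in this comparison, since ALY688+LPS mouse 8, one of the shallow libraries, had 8 and 5 counts of them. Stfa2 had 567 counts over the 7 ALY688+LPS libraries and 9 over the 10 ALY688 libraries, a ratio of 73.5 with a counting interval of 38.5 to 162. Stfa3 had 598 counts in ALY688+LPS and 1 in ALY688, a ratio of 698 with an interval of 125 to 27617. By mouse, Stfa2 had 1.05 CPM at the lowest, 5.00 at the median and 8.59 CPM at the highest in ALY688+LPS mice, against 0, 0.0324 and 0.305 CPM in ALY688 mice. Stfa3 had 1.27, 5.49 and 8.46 CPM in ALY688+LPS mice, against 0, 0 and 0.0649 CPM in ALY688 mice. Neither gene overlapped between the groups, which again is only a description. In a fit of every gene with at least 1 count, both passed, at log2 fold changes of 5.97 for Stfa2 (adjusted p = 9.17e-09, edgeR) and 8.21 for Stfa3 (adjusted p = 1.02e-13). In that fit 7342 of 26025 genes passed, 3714 of them as higher. Nearly all counts of both genes came from the ALY688+LPS libraries, so their passing is a description.

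**Figure D3:**
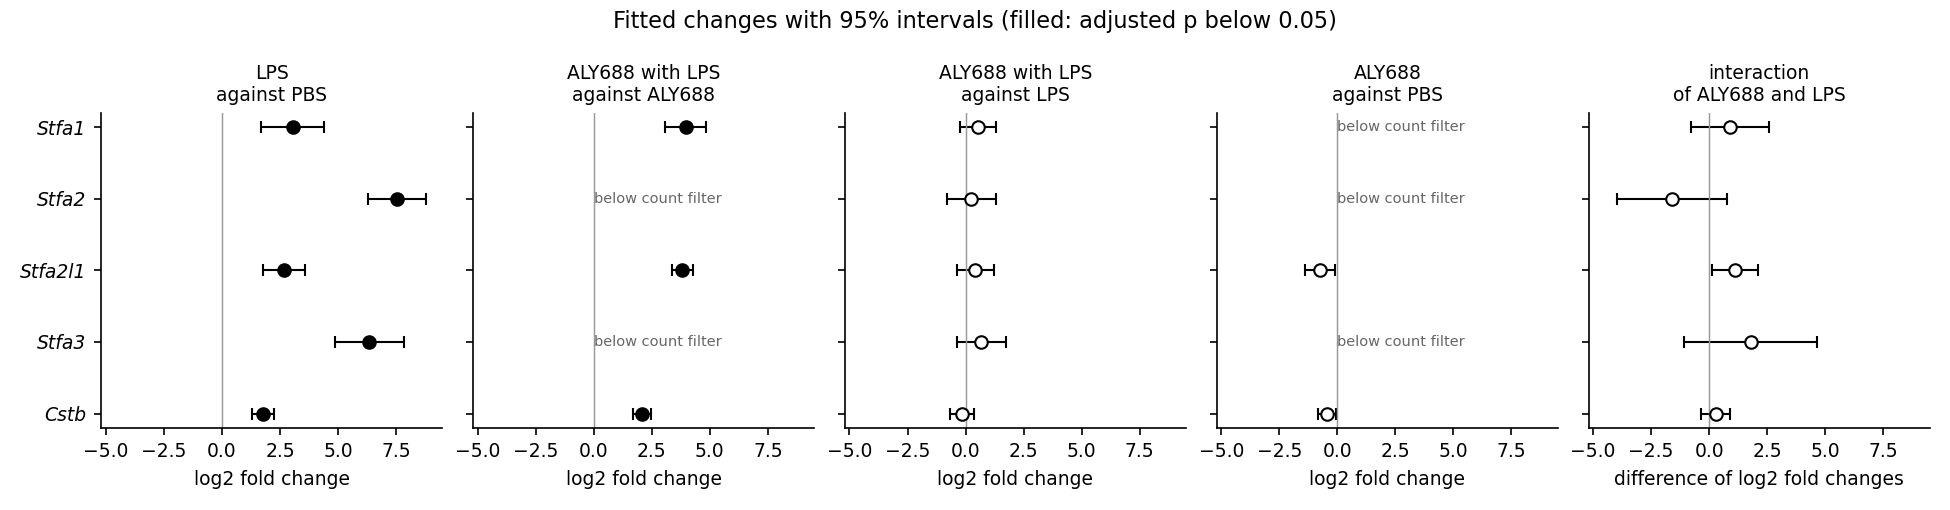
Fitted log2 fold change of each member with its 95% interval in 5 comparisons (1 panel each), filled where the adjusted p is below 0.05. Filled points appear in the 2 comparisons of LPS mice with mice not given LPS, and the points of the other 3 comparisons are open.

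Whether ALY688 altered the members in LPS mice was asked by comparing ALY688+LPS with LPS mice. Means of Stfa2l1 were 40.0 ± 10.2 CPM in ALY688+LPS mice (SD, n = 7) and 29.9 ± 19.5 CPM in LPS mice (SD, n = 4), and those of Stfa3 were 4.56 ± 2.81 CPM in ALY688+LPS and 2.97 ± 1.13 CPM in LPS mice. Means of Cstb were 17.5 ± 5.45 CPM in ALY688+LPS and 19.4 ± 5.34 CPM in LPS mice. The groups overlapped for all 5 members. The fitted log2 fold changes were 0.68 ± 0.49 (SE) for Stfa3, 0.53 ± 0.35 for Stfa1, 0.42 ± 0.36 for Stfa2l1, 0.25 ± 0.49 for Stfa2 and −0.15 ± 0.24 for Cstb. Adjusted p-values lay between 0.913 and 0.947 (edgeR). Of 12741 genes 0 (0%) passed, with 464 at an unadjusted p below 0.05, and DESeq2 and limma-voom also called 0.

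These values leave room for differences of some size. The 95% interval of the ALY688+LPS over LPS change ran from −0.36 to 1.21 on the log2 scale for Stfa2l1 and from −0.67 to 0.36 for Cstb. For Stfa3 it ran from −0.38 to 1.74, so more than a doubling was not outside it. The Stfa2l1 value also hung on single LPS mice. It was 0.95 ± 0.30 (SE) without LPS mouse 7 and 0.18 without LPS mouse 6. With 1 library left out at a time, Stfa3 ran from 0.45 to 0.88 and Cstb from −0.26 to −0.0025. In each of these fits 0 genes passed.

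Without LPS, Stfa2l1 averaged 2.92 ± 1.02 CPM in ALY688 mice (SD, n = 10) and 4.98 ± 2.83 CPM in PBS mice (SD, n = 9). Cstb averaged 4.23 ± 0.965 CPM in ALY688 mice and 5.80 ± 1.76 CPM in PBS mice. Both were lower on average in ALY688 mice, with overlapping ranges. The log2 fold changes were −0.73 ± 0.31 for Stfa2l1 (SE, unadjusted p = 0.0289) and −0.44 ± 0.19 for Cstb (unadjusted p = 0.0270), and neither passed (adjusted p = 0.442 for both, edgeR). Without TMM scaling Stfa2l1 stood at −0.052 and Cstb at 0.12, so the direction of Cstb turned. Of the 9 PBS mice, the 3 highest in Stfa2l1 were mice 5, 6 and 9, whose libraries are among those with few detected genes. Without the libraries of few detected genes, the changes were −0.32 for Stfa2l1 (adjusted p = 0.987, edgeR) and −0.26 for Cstb (adjusted p = 0.987). In this comparison 0 of 11708 genes (0%) passed, with 1250 at an unadjusted p below 0.05, and DESeq2 and limma-voom called 0 as well.

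Stfa1, Stfa2 and Stfa3 were below the filter on low counts there. Stfa1 had 33 counts over the ALY688 libraries and 23 over the PBS libraries, Stfa2 had 9 in ALY688 and 1 in PBS, and Stfa3 had 1 in ALY688 and 2 in PBS. The counting intervals of all 3 ratios held 1, running from 0.474 to 1.48 for Stfa1.

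The interaction sets the ALY688+LPS over LPS change against the ALY688 over PBS change, as their difference on the log2 scale. It was 1.13 ± 0.49 for Stfa2l1 (SE, unadjusted p = 0.0273, adjusted p = 0.507, edgeR) and 0.28 ± 0.30 for Cstb (adjusted p = 0.697). The Stfa2l1 value was 0.24 without TMM scaling and 0.72 without the libraries of few detected genes. For Stfa1 it was 0.91 ± 0.82, for Stfa2 −1.60 ± 1.17 and for Stfa3 1.80 ± 1.41, and none passed. The Stfa3 value turned to −0.24 when PBS mouse 5, the PBS mouse that had Stfa3 counts, was left out. Among 13476 genes 0 (0%) passed, 1216 had an unadjusted p below 0.05, and limma-voom called 0 and DESeq2 called 4.

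Summing the stefin A cluster genes to 1 row, members and neighbours together, takes out any exchange of counted reads among them. It does not cover genes outside the row that share 50-base words, such as Gm49652 with Stfa2l1 and Gm15845 with Stfa1. Nor does it bring back reads left uncounted because they match several places. The summed row had a log2 fold change of 3.01 ± 0.40 (SE) for LPS over PBS and 4.13 ± 0.22 for ALY688+LPS over ALY688. It stood at 0.43 ± 0.37 for ALY688+LPS over LPS and at −0.70 ± 0.28 for ALY688 over PBS. These are given without a p, since the row was formed from chosen genes.

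Counts of near-identical partners were also set against each other. Stfa2 counts were 14.6% of Stfa2l1 counts over the LPS libraries (335 of 2296) and 0.322% over the PBS libraries (1 of 311). At the LPS ratio, the PBS libraries would have held 45.4 Stfa2 counts. Under ALY688 the share was 12.2% with LPS (567 of 4629) and 2.41% without it (9 of 373). BC100530 counts were 96.4% of Stfa1 counts over the LPS libraries and 17.4% over the PBS libraries (4 of 23). Under ALY688 the difference was smaller, with 59.5% with LPS (264 of 444) and 27.3% without it (9 of 33). How reads matching both partners were counted is unknown, and its part in these percentages was not tested.

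The make-up of the stefin A reads was not the same in mice with and without LPS, although it was not given a test. Stfa2 and Stfa3 together made up 16.3% ± 6.03 of the reads of the 4 members in ALY688+LPS mice (SD, n = 7) and 18.9% ± 2.82 in LPS mice (SD, n = 4). They made up 2.61% ± 3.50 in ALY688 mice (SD, n = 10) and 0.876% ± 1.92 in PBS mice (SD, n = 9). Each LPS mouse lay between 14.7% and 20.5%, and no PBS mouse was above 5.56%, but ALY688+LPS mice 8 and 4 had 6.67% and 9.61% and ALY688 mouse 3 had 10%, 3 of its 30 reads. Stfa2l1 held 76.5%, 73.7%, 90.9% and 93.2% of the reads in ALY688+LPS, LPS, ALY688 and PBS mice. Stfa1 held similar shares, 7.22%, 7.36%, 6.47% and 5.97% in the same groups.

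**Figure D4:**
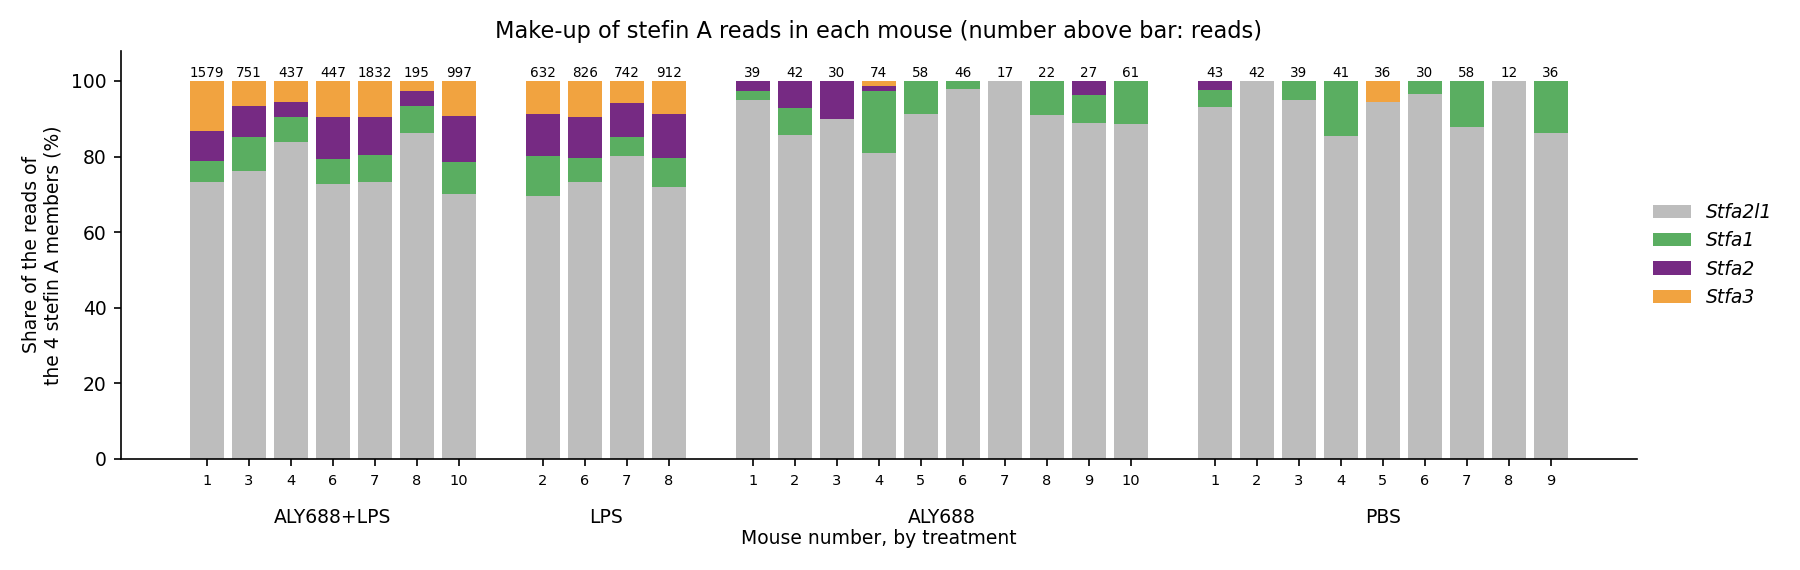
Share of the reads of the 4 stefin A members that fell to each, 1 bar per mouse, with the number of reads above the bar. Stfa2 and Stfa3 take visible shares in all 11 mice given LPS and few or none of the 12 to 74 reads in mice not given LPS.

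Per kb of exon, Stfa2l1 and Cstb held the first 2 ranks in each group, and the order of Stfa1, Stfa2 and Stfa3 below them varied. Without LPS those 3 genes were near 0, so their order there says little. In ALY688+LPS mice Stfa2l1 (95.5 ± 24.4 CPM per kb, mean ± SD) was above Cstb (29.0 ± 9.05) in 7 of 7 mice without overlap, followed by Stfa3 (11.1 ± 6.81), Stfa2 (9.99 ± 5.73) and Stfa1 (5.40 ± 1.87). Cstb was above Stfa3 in 7 of 7 mice, although their ranges overlapped, as did those of the last 3 genes. In LPS mice the order was Stfa2l1 (71.3 ± 46.6), Cstb (32.2 ± 8.85), Stfa2 (8.67 ± 4.19), Stfa3 (7.21 ± 2.74) and Stfa1 (3.81 ± 1.57), and only the step from Cstb to Stfa2 had ranges that did not overlap. Within each of the 4 LPS mice, however, Stfa2 was above Stfa3 and Stfa3 above Stfa1. In ALY688 mice Cstb (7.01 ± 1.60) and Stfa2l1 (6.98 ± 2.43) overlapped, and both stood clear of Stfa1, Stfa2 and Stfa3. In PBS mice Stfa2l1 (11.9 ± 6.74) and Cstb (9.62 ± 2.93) overlapped, with Stfa2l1 above Cstb in 5 of 9 mice, and both stood clear of Stfa1 (0.493 ± 0.596), Stfa3 (0.162 ± 0.487) and Stfa2 (0.0216 ± 0.0647), whose ranges overlapped.

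Neutrophil markers moved with the stefin A genes. All 12 of 12 markers (S100a8, S100a9, Csf3r, Cxcr2, Retnlg, Mmp8, Mmp9, Il1r2, Ly6g, Fpr1, Hdc and Lrg1) passed as higher in LPS than PBS mice, with a median log2 fold change of 3.64, and in ALY688+LPS than ALY688 mice, with a median of 4.09. The medians over all genes tested were −0.04 and −0.05. Of all genes tested, 20.9% passed as higher in the first comparison and 26.4% in the second. Their summed level ran from 5947 to 13976 CPM in ALY688+LPS mice, 4433 to 15192 in LPS mice, 546 to 1491 in ALY688 mice and 602 to 2294 CPM in PBS mice. In bulk blood, more or fewer cells of a type and more or less RNA per cell cannot be told apart. None of the markers was at 0 in any group. In ALY688 against PBS mice 11 of the 12 were tested, so the counts of 12 may include a gene that entered through the LPS libraries.

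The 4 stefin A members together were also set against that sum. The log2 ratio of summed stefin A to summed neutrophil marker CPM was −7.72 ± 0.190 in ALY688+LPS mice (SD, n = 7), −7.99 ± 0.232 in LPS mice (SD, n = 4), −8.30 ± 0.338 in ALY688 mice (SD, n = 10) and −7.86 ± 0.650 in PBS mice (SD, n = 9). The ALY688+LPS mean lay above the ALY688 mean by more than either SD, and 8 of 10 ALY688 mice lay below every ALY688+LPS mouse. The means of LPS and PBS mice differed by less than the SD of either group. The ratio of Cstb to the same sum was lower on average in both LPS groups, with −9.32 ± 0.310, −8.88 ± 1.13, −7.86 ± 0.566 and −7.57 ± 0.608 in ALY688+LPS, LPS, ALY688 and PBS mice. LPS mouse 7, highest in Stfa2l1, also had the highest marker sum, 15192 CPM, and LPS mouse 6, lowest in Stfa2l1, had the lowest among LPS mice. How far the number of neutrophils accounts for the stefin A levels was not tested.

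**Figure D5:**
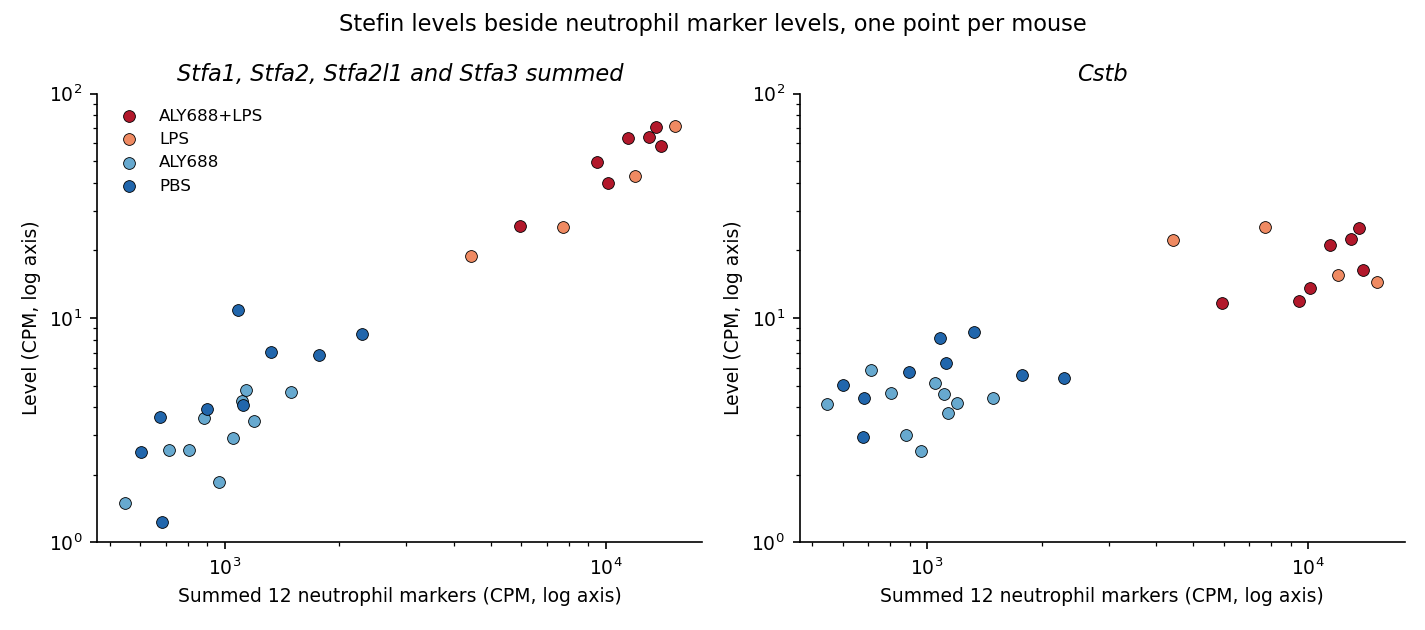
Summed stefin A level (left) and Cstb level (right) against the summed level of 12 neutrophil markers, in CPM on log axes, 1 point per mouse. On the left both LPS groups continue the spread of the groups without LPS to higher values of both measures, and on the right Cstb reaches at most 25.5 CPM over the same range.

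Other cell types were checked with lists as well. Summed monocyte markers ran from 664 to 816 CPM in ALY688+LPS mice, 608 to 1019 in LPS mice, 262 to 622 in ALY688 mice and 274 to 1482 CPM in PBS mice, and 4 of the 7 tested passed as higher and 1 as lower in LPS against PBS mice. Epidermal markers, of interest because keratinocytes make stefin A, summed to at most 0.640 CPM in any mouse, with Ivl and Flg at 0 in every group. The immature granule list (Ngp, Camp, Ltf, Chil3, Elane, Mpo, Prtn3 and Ctsg), which marks young neutrophils, summed to 314 to 1140 CPM in ALY688+LPS mice, 464 to 1511 in LPS mice, 29.5 to 302 in ALY688 mice and 42.8 to 205 CPM in PBS mice. Of its 8 genes, 5 were tested and all 5 passed as higher in LPS than PBS mice, and 4 of 5 did in ALY688+LPS than ALY688 mice. In ALY688 against PBS mice only 3 of the 8 were tested. Some of the 5 may thus have entered through the LPS libraries, and these counts are descriptions that support nothing. The part of the immature granule list in the Stfa2 and Stfa3 levels was not tested. Lymphocyte markers moved the other way in LPS against PBS mice, with 6 of 6 B cell and 5 of 6 T cell markers passing as lower, while 5 of 6 NK cell markers passed as higher. Of 7 erythroid markers 1 passed as lower, and of 6 platelet markers 2 did. Beside these counts, 20.9% of all genes tested passed as higher and 17.9% as lower in LPS against PBS mice. The erythroid count, 1 of 7, is near that share and shows nothing particular to these markers. In ALY688+LPS against ALY688 mice 6 of 6 B cell and 6 of 6 T cell markers passed as lower. NK cell markers were mixed there, with 2 passing as higher, 1 as lower and 3 not passing. No platelet marker passed there, and of 7 erythroid markers 1 passed as higher. Of all genes tested in that comparison, 26.4% passed as higher and 26.6% as lower. Globin genes took 26.3% to 54.3% of counts in ALY688+LPS, 18.5% to 43.7% in LPS, 42.2% to 60.8% in ALY688 and 45.2% to 64.4% in PBS libraries, so LPS and PBS libraries did not overlap. The part of these shifts in the stefin levels was not tested, and with globin genes left out of library sizes and scaling the log2 fold changes of LPS over PBS were 2.70 for Stfa2l1, 1.79 for Cstb, 3.07 for Stfa1, 7.56 for Stfa2 and 6.38 for Stfa3.

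Genes whose profile over the 30 libraries was nearest to a member's were found by the root mean square difference of centred log2 CPM among 10696 named genes of at least 1 CPM on average. Nearest to Stfa2l1 were Trem1 (0.42), Hp (0.44) and Ifitm2 (0.45), where the median over all candidates was 1.79. Trem1 encodes a receptor that amplifies inflammatory signals on neutrophils and monocytes, and Hp encodes haptoglobin. Nearest to Stfa1 were Il1f9 (0.64), C5ar1 (0.66) and Dmxl2 (0.67). Ifitm6 and Mmp25 (a membrane-bound metalloproteinase of leukocytes) were among the nearest 3 of both Stfa2 (0.60 and 0.65) and Stfa3 (0.57 and 0.69). Cstb was nearest to Rnpep (0.33), Lgals3 (0.33) and Cndp2 (0.34), where the median over candidates was 1.10. Lgals3 encodes galectin-3, a lectin abundant in macrophages. Among members, Stfa2 and Stfa3 differed by 0.67, Stfa1 and Stfa2l1 by 0.86, Stfa2l1 and Stfa3 by 0.89, and Stfa2l1 and Cstb by 0.96. The other pairs differed by 1.05 to 1.47. Stfa2 and Stfa3 were at 0 in most mice without LPS, so their small difference reflects that shared floor in part. These distances compare libraries that fall into groups with and without LPS, so they are descriptions.

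The other genes of the stefin A cluster were few in number and low in level apart from 1. Of 9 symbols listed, Csta2 and Csta3 are RefSeq names of 2010005H15Rik and Gm5416, which are also listed. The 7 others were all annotated, and 6 of them had a count. Both genes tested, 2 of 2, passed as higher in LPS than PBS mice, where 20.9% of all genes did. One of them, BC100530, had 4 counts over the 9 PBS libraries and entered the test through the LPS libraries alone, so the count of 2 supports nothing. Gm5483 (Cstdc4 in RefSeq) averaged 25.5 ± 10.0 CPM in ALY688+LPS mice, 18.1 ± 10.1 in LPS mice, 1.43 ± 0.528 in ALY688 mice and 2.45 ± 1.90 CPM in PBS mice, and its log2 fold change was 3.02 ± 0.44 for LPS over PBS (SE, adjusted p = 7.13e-05, edgeR). BC100530 averaged 2.36 ± 0.538 CPM in LPS and 0.0407 ± 0.0678 CPM in PBS mice (log2 fold change 5.30 ± 0.54, adjusted p = 2.42e-06). Gm5483 was also higher in ALY688+LPS than ALY688 mice, by 4.11 ± 0.26 (adjusted p = 1.90e-10), and was the 1 gene of the list tested there.

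Other cystatin superfamily symbols listed numbered 18, among them Cstdc4, the RefSeq name of Gm5483 of the cluster. Of the list, 4 were tested in LPS against PBS mice and 3 passed as higher, beside 20.9% of all genes. In ALY688 against PBS mice 3 of the list were tested, so the 4 may include a gene that entered through the LPS libraries. Ngp, a cystatin-like protein of neutrophil granules, averaged 346 ± 197 CPM in LPS mice and 7.72 ± 11.4 CPM in PBS mice (log2 fold change 5.58 ± 0.90, adjusted p = 0.000192, edgeR). Camp, the cathelicidin precursor, had 3.93 ± 1.08 (adjusted p = 0.0101), and Cst7, cystatin F of cytotoxic and myeloid cells, 1.18 ± 0.22 (adjusted p = 0.000519). Cst3, the secreted cystatin C, had 245 ± 25.1 CPM in LPS and 204 ± 74.7 CPM in PBS mice and did not pass (0.27 ± 0.29, adjusted p = 0.494). In ALY688+LPS against ALY688 mice 3 of 4 passed as higher, beside 26.4% of all genes, among them Cst3 (0.85 ± 0.16, adjusted p = 0.000224) and Ngp (4.08 ± 0.94, adjusted p = 0.00139). Ngp and Camp also belong to the immature granule list.

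The cysteine proteases that cystatins act on moved in both directions. Of 11 cathepsins and legumain listed, 10 were tested in LPS against PBS mice, where 4 passed as higher, 2 as lower and 4 did not pass, with a median log2 fold change of 0.36 against −0.04 over all genes. Ctsl, a lysosomal endopeptidase, averaged 15.4 ± 6.33 CPM in LPS and 2.46 ± 0.936 CPM in PBS mice (2.64 ± 0.27, adjusted p = 2.17e-06, edgeR). Ctsc, which activates the granule serine proteases, had a log2 fold change of 1.68 ± 0.26 (adjusted p = 0.000118). Lgmn, the asparaginyl endopeptidase, had 0.88 ± 0.21 (adjusted p = 0.00344) and Ctss, which trims the invariant chain of MHC class II, 0.87 ± 0.22 (adjusted p = 0.00507). The 6 of 10 that passed stand beside 38.7% of all genes tested. In ALY688+LPS against ALY688 mice 5 of 10 passed as higher and 1 as lower, near the 53% of all genes that passed there, so the count shows nothing particular to the proteases. Among those higher were Ctsc (1.58 ± 0.15, adjusted p = 2.52e-08, edgeR) and Ctss (1.08 ± 0.13, adjusted p = 1.60e-06).

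Of 10 neutrophil serine proteases, leukocyte serpins and related genes, 7 were tested in LPS against PBS mice, where 3 passed as higher and 2 as lower, beside 38.7% of all genes that passed. In ALY688 against PBS mice 6 of the list were tested, so the 7 may include a gene that entered through the LPS libraries. Slpi, a secreted inhibitor of neutrophil elastase, averaged 137 ± 52.9 CPM in LPS and 38.8 ± 19.0 CPM in PBS mice (1.83 ± 0.32, adjusted p = 0.000367, edgeR). Serpinb9, an inhibitor of granzyme B, had 1.47 ± 0.27 (adjusted p = 0.000542), Serpinb10 −1.68 ± 0.32 (adjusted p = 0.000628), and Prtn3, a granule protease, 4.99 ± 0.99 (adjusted p = 0.00107), with an SD above its mean in LPS mice (18.4 ± 33.0 CPM). In ALY688+LPS against ALY688 mice 4 passed as higher and 2 as lower, beside 53% of all genes, with Slpi at 2.45 ± 0.22 (adjusted p = 2.43e-08) and Serpinb1a, an inhibitor of neutrophil elastase, at −1.06 ± 0.15 (adjusted p = 6.49e-06). No gene of these 4 lists passed in ALY688+LPS against LPS mice, in ALY688 against PBS mice or in the interaction. Of all genes tested, 0 of 12741, 0 of 11708 and 0 of 13476 passed there, so this shows nothing particular to the lists.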

How the data were processed

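The authors deposited raw whole-number counts of 54532 gene IDs for each mouse. The submitters' processing notes name HISAT2 2.0.5 for alignment and featureCounts 1.5.0-p3 for counting. No source used here gives the genome build, annotation or strand setting, so reads of overlapping or antisense genes cannot be told apart. Of 34 labelled samples 30 were used, and PBS mouse 10 with LPS mice 3, 4 and 5 are not analysed here. GENCODE M21 (GRCm38) annotated 54495 IDs. No pair of libraries within a group agreed within sampling noise.

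Groups were compared with edgeR 4.0.16 in R 4.3.3 (TMM, filterByExpr with its minimum count of 10, robust glmQLFit, glmQLFTest, two-sided), with only the compared groups in a fit and all 4 in the interaction. The adjusted p threshold was 0.05. Ratios of pooled counts carry exact 95% conditional binomial intervals over TMM-scaled library sizes. Scripts were tested on simulated data. Alternatives were DESeq2 1.42.0, limma-voom (limma 3.58.1), other scaling and filters, and leaving out libraries. Transcripts and promoters were aligned with Biopython 1.88.

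All 5 members are named. Of each list, up to 4 genes with the smallest unadjusted p in LPS against PBS, and up to 2 in each other comparison, could be named. Members and lists were chosen with earlier results of these data known.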

Additional observations from a re-analysis of the deposited data

Results flagged for a closer look

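Of 20 sets of values (5 members in 4 groups), 4 held a mouse whose gap to its nearest neighbour was large for the group's range by Dixon's criterion, where chance gives about 1 in 20. That rate does not apply to the 3 sets in which 1 mouse had 1 or 2 counts and all others 0, since a lone count among zeros always meets the criterion. Stfa1 reached 0.778 CPM (12 counts) in ALY688 mouse 4, which also held the single Stfa3 count of the ALY688 group, 0.0649 CPM. Stfa2 was at 0.0915 CPM (1 count) in PBS mouse 1 and at 0 in the other PBS mice. Stfa3 was at 0.602 CPM (2 counts) in PBS mouse 5 and at 0 in the other PBS mice.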

How the results depend on the processing

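Of the alternative values, 658 were the same, 3 moved and 7 turned sign. A log2 value was the same where it kept its direction and side of the threshold. A count of passing genes was the same where it stayed of similar size, as with 3532 to 5986 against the main 4786 in LPS against PBS. With library totals only and no TMM, which moved the median of all genes by 1.08 (LPS against PBS), 0.07 (ALY688+LPS against ALY688), −0.49 (ALY688+LPS against LPS), 0.47 (ALY688 against PBS) and −0.96 (interaction), the count of passing genes in ALY688+LPS against ALY688 was 3050, and 4 log2 values that had not passed turned sign: Stfa2 to −0.045 in ALY688+LPS against LPS, Cstb to 0.12 in ALY688 against PBS, and Stfa1 to −0.023 and Cstb to −0.78 in the interaction. The Stfa2 interaction was 0.18 with limma-voom, the Stfa3 interaction −0.20 without the libraries of few detected genes, and DESeq2 called 4 genes in the interaction. Leaving out 1 library at a time gave 0 to 1 interaction genes, the 1 without ALY688+LPS mouse 1, and a Stfa3 interaction of −0.24 to 2.68, lowest without PBS mouse 5. The cause of these changes was not tested. In LPS against PBS the leave-one-out ranges were 2.18 to 2.94 for Stfa2l1, 1.62 to 1.92 for Cstb, 2.83 to 3.39 for Stfa1, 7.28 to 8.82 for Stfa2 and 6.11 to 8.43 for Stfa3. Over the other alternatives they were 2.61 to 3.70 for Stfa2l1, 1.75 to 3.02 for Cstb, 3.02 to 4.04 for Stfa1, 5.51 to 8.87 for Stfa2 and 5.05 to 8.59 for Stfa3, the last 2 lowest with limma-voom.

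Mouse numbers are shared between groups, but same-numbered mice did not deviate together (correlations of −0.50 to 0.30, none the best match of its library). This check over all filtered genes showed no pairing by number, but it cannot establish that there was none. With the replicate block 3532 genes passed in LPS against PBS and 4869 in ALY688+LPS against ALY688, the values in LPS against PBS were 2.74 for Stfa2l1, 1.90 for Cstb, 3.79 for Stfa1, 8.87 for Stfa2 and 8.41 for Stfa3, and no member changed its call. Depth limits Stfa1, Stfa2 and Stfa3 without LPS, where most libraries hold 0 to 3 counts.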
